A study of Mus musculus with 12 samples.

Results

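Genes of DNA replication and cell division were described in spleen T cells of NOD mice, related congenic mice and marrow recipients, and in the kidney of 1 congenic strain. Members were the genes whose single symbol on the array belongs to the Mcm, Orc, Rfc, A, B, D and E cyclin, Cdk, Cdc, Bub, Plk, Aurk, Kif, Cenp or Anapc families, or is Top2a, Pcna, Birc5, Stmn1, H2az1 or Hells. Cdc42 and Cdc37 genes were left out. The rule is one of names and used no measured value, but it was chosen with earlier results of these data known. It found 124 of the 8708 genes measured, on 215 of 13033 probes with a single gene symbol, and 55 of the 124 genes had several probes.

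Before a cell divides, the origin recognition complex (Orc) and Cdc6 load the Mcm helicase onto replication origins, and the clamp Pcna, loaded by the Rfc complex, holds the polymerases at the fork. Cyclins and cyclin-dependent kinases (Cdk) drive the steps of the cycle, centromere proteins (Cenp) and kinesins (Kif) attach and move chromosomes, and the anaphase-promoting complex (Anapc) starts their separation. Many of these genes are transcribed in dividing cells through E2F factors at the G1/S boundary or through complexes that bind CHR and CCAAT elements before mitosis. Most T cells of the spleen rest outside the cycle, so their levels of these RNAs are usually low.

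The series holds 12 mouse cDNA arrays with 2 colours, in 6 groups of 2 arrays, and every array compared an experimental RNA with RNA of B6 mice. NOD mice, which develop autoimmune diabetes, NOD.H2h4 mice, which carry another MHC haplotype on that background, and B6.NODIdd1,5 mice, which carry the Idd1 and Idd5 intervals of NOD on a B6 background, each gave spleen T cells that were set against B6 spleen T cells. B6.NODIdd1,5 kidney cells were set against B6 kidney cells. NODtoB6 arrays hold spleen T cells of B6 recipients of NOD bone marrow, and B6toNOD arrays those of NOD recipients of B6 bone marrow, both set against T cells of B6 mice with no transfer named. The sources used here name no age, sex, sort of the T cells, conditioning or time after transfer. In the 8 strain and kidney arrays the experimental RNA was labelled with Cy5 and the B6 RNA with Cy3. For the 4 arrays of marrow recipients the sources used here name no dyes. Their ratios were read in the same direction as the others, which is an assumption. With the dyes the other way round, every higher and lower in the marrow groups would exchange places.

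Each value below is a log2 ratio to B6 after the array's median over all features was subtracted, so higher and lower mean relative to the typical feature of the same array. Errors are standard errors of the limma fit, with n = 2 arrays per group, and the threshold is an adjusted p of 0.05. In the deposited values the typical feature lay below B6, and subtracting the median raised it most in the NOD.H2h4 arrays (0.80) and B6toNOD arrays (0.76), followed by kidney (0.46), NODtoB6 (0.23), the congenic T cells (0.18) and NOD (0.15). A higher value smaller than its group's shift is therefore lower than B6 in the deposited values. Arrays gave values for 15142 to 16243 of 16411 features, and 105 members had a value on all 12 arrays. Each of the 12 arrays was also left out in turn. A fit without 1 of a group's own 2 arrays tests the other array alone, which is assumed to vary like the other groups, so a call held there says nothing about the spread within that group. Over the members, Pearson's r was 0.46 to 0.80 between the arrays of a group and -0.18 to 0.37 between arrays of different groups (a description across genes, which are not independent replicates). In bulk RNA, fewer cells of a type and less RNA per cell cannot be told apart. T cells could not be checked by level, since the values are ratios to B6 cells of the same tissue, and 5 of 18 T cell markers were on the array.

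The families were of unequal size. Origin licensing had 14 members, the clamp and its loaders 5, cyclins and genes named after them 8, cyclin-dependent kinases and proteins named after them 20, and other Cdc genes 9. Mitotic kinases and checkpoint genes had 9 members, mitotic kinesins 11, other kinesins 12, centromere proteins 18, the anaphase-promoting complex 14, and the mixed group of Top2a, H2az1, Hells and Stmn1 had 4. The rule on names also took in genes with other roles, such as Cdc5l of the spliceosome, Cdc73 of the PAF1 transcription complex, the kinase Cdk5 of neurons and the transport kinesins. Mcm3ap and Ccnb1ip1, counted with origin licensing and the cyclins, are only named after members of those families. Of the 124 members, 92 passed the threshold against B6 in at least 1 group and 32 in none. Among the 92, 23 were only higher where they passed, 40 only lower, and 29 were higher in some groups and lower in others. The same counts were not made over all features. In B6toNOD alone, 28.5% of all features were higher and 22.9% lower, so the 92 are not read as particular to this list.

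**Figure D1:**
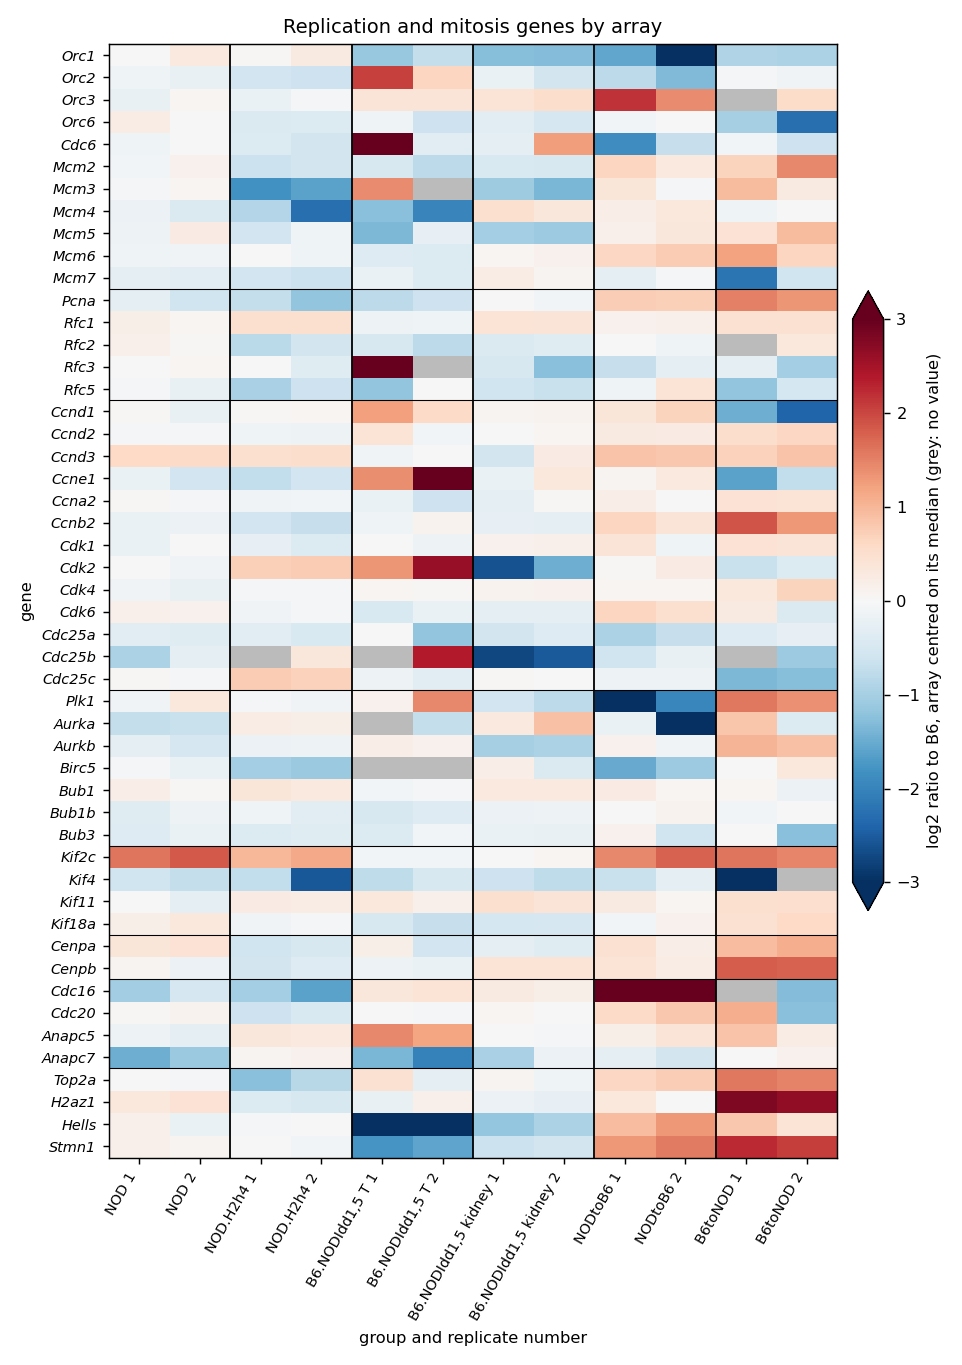
Log2 ratios to B6 of 50 replication and mitosis genes (rows, ordered by role) on the 12 arrays (columns), each array centred on its median. Red is higher and blue lower than the array's typical feature, the colour is limited at 3 in both directions, and grey marks no value. In the direction assumed for the marrow groups, B6toNOD arrays have the reddest H2az1, Stmn1, Cenpb, Ccnb2, Top2a and Pcna, and the B6.NODIdd1,5 T arrays the bluest Hells.

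In the marrow recipients B6toNOD, of 113 members tested, 35 were higher and 23 lower, against 28.5% higher and 22.9% lower of all features. In NODtoB6, 16 of 123 were higher and 17 lower, beside 13.8% and 13.1% of all features. In NOD T cells 5 of 124 were higher and 3 lower, beside 9.79% and 2.46%. In NOD.H2h4, 17 of 121 were higher and 21 lower, beside 24.1% and 15.4%. B6.NODIdd1,5 T cells had 6 of 115 higher and 17 lower, beside 14.4% and 15.9%. B6.NODIdd1,5 kidney had 13 of 122 higher and 20 lower, beside 22.4% and 11.1%. As shares of the members tested these are 31% higher and 20.4% lower in B6toNOD, 13% and 13.8% in NODtoB6, 4.03% and 2.42% in NOD, 14% and 17.4% in NOD.H2h4, 5.22% and 14.8% in B6.NODIdd1,5 T cells, and 10.7% and 16.4% in kidney. Over the genes with a symbol, the higher and lower shares were 26.3% and 21.6% in B6toNOD, 12.9% and 12.4% in NODtoB6, 5.56% and 2.28% in NOD, 15.5% and 18.5% in NOD.H2h4, 10.8% and 18.2% in B6.NODIdd1,5 T cells, and 14.1% and 11.9% in kidney. The members' shares lie near these in most groups, above them for lower calls in kidney and higher calls in B6toNOD, and below them for higher calls in B6.NODIdd1,5 T cells. These shares describe the list and were not tested. Counts by family below are to be read beside the shares of all features in the same group. The order of the groups by how many members passed depends on the setting. B6toNOD had the most here (58) and NOD the fewest (8), but as deposited NOD.H2h4 had the most (87, beside 67 in B6toNOD), with arrays scaled to the same spread NOD had the most (38, beside 36 in B6toNOD), and with only the compared groups in the limma fit 0 passed in B6toNOD (40 at an unadjusted p under 0.05) and 17 in NOD.

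The split into higher and lower rests on the centring. In the values as deposited limma called 0 higher and 87 lower in NOD.H2h4 (92 at an unadjusted p under 0.05), 0 and 52 in B6.NODIdd1,5 kidney (70 unadjusted), 7 and 60 in B6toNOD, 5 and 20 in NODtoB6, 4 and 21 in B6.NODIdd1,5 T cells, and 1 and 1 in NOD. With arrays centred on the genes with 1 symbol, it was 23 higher and 17 lower in NOD.H2h4 and 11 and 13 in B6.NODIdd1,5 T cells. The median over the members tested was 0.06 in B6toNOD, 0.02 in NODtoB6, -0.16 in NOD.H2h4, -0.05 in NOD, -0.14 in kidney and -0.07 in the congenic T cells. Over all genes with a symbol the medians were -0.04, -0.01, -0.14, -0.03, -0.07 and -0.08 in the same order.

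**Figure D2:**
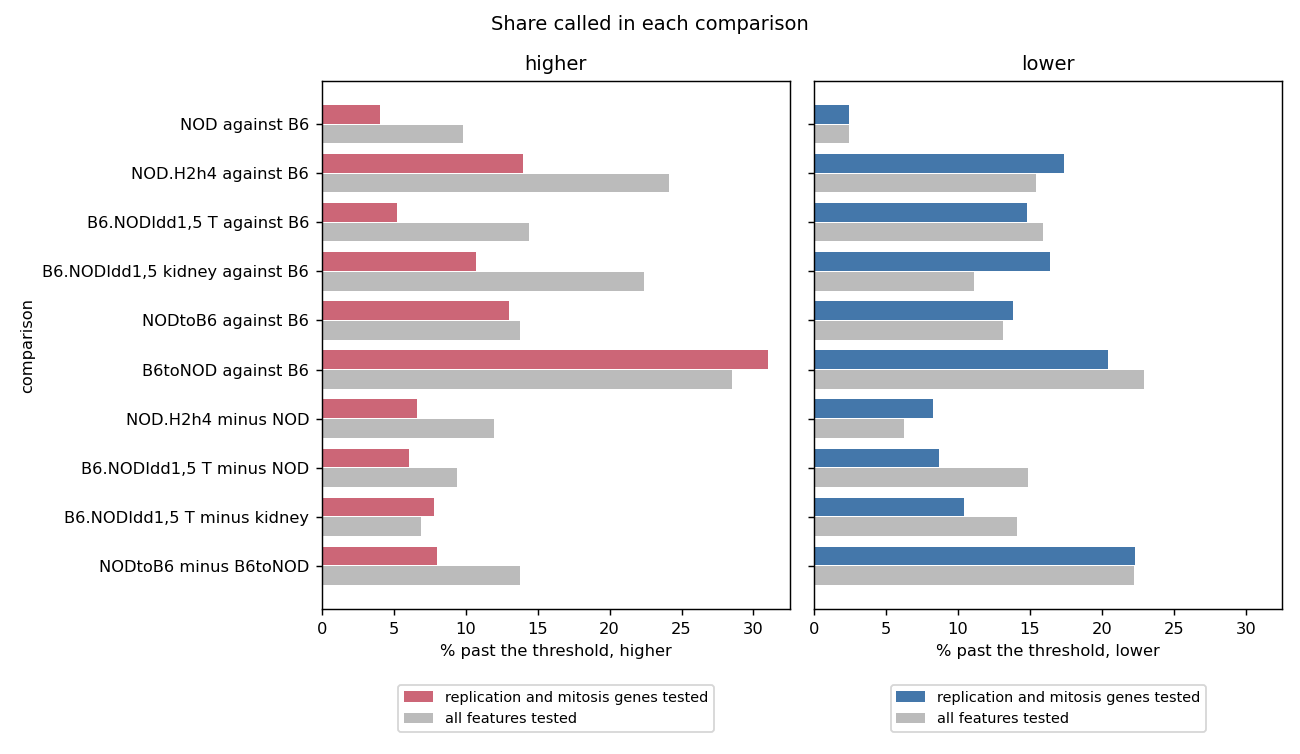
Percent of the replication and mitosis genes tested (coloured bars) and of all features tested (grey bars) that passed the threshold as higher (left) and lower (right) in each of 10 comparisons. The largest share of members was 31% higher in B6toNOD, where 28.5% of all features were higher.

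Promoters of members that the values below turn on are printed here from RefSeq, because Mcm3, Mcm6, Hells and Top2a carry the E2F or CHR letters named in the background and Pcna does not. Each window is 300 bases long, runs 5′ to 3′ from upstream of the gene's start to 50 bases after it, on assembly GRCm38.p6, and capitals mark the E2F letters (TTTCCCGC, TTTGGCGC, TTTCGCGC or TTTGCCGC) and the CHR letters (TTTGAA) on either strand. Mcm3 lies on the minus strand at chr1:20820263-20820562, Mcm6 on the minus strand at chr1:128359656-128359955, Hells on the plus strand at chr19:38930740-38931039, Top2a on the minus strand at chr11:99024140-99024439 and Pcna on the minus strand at chr2:132253131-132253430.
Mcm3: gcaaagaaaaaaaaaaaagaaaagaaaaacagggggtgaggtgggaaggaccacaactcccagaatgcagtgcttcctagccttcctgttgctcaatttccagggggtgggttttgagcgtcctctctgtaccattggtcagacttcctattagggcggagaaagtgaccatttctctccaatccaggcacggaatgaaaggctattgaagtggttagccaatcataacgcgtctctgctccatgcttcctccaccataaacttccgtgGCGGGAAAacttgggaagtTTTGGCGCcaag
Mcm6: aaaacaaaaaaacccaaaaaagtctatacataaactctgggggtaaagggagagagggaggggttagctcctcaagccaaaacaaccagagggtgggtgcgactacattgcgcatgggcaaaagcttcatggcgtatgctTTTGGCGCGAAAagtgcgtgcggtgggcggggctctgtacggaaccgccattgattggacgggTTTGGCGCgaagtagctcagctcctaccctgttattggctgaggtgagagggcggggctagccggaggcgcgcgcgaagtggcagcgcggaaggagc
Hells: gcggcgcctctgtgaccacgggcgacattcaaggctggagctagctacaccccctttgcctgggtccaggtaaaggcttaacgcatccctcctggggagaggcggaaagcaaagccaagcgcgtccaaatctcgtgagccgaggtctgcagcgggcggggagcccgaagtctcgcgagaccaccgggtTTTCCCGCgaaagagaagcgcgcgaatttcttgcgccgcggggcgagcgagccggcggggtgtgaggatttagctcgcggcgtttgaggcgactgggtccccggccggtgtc
Top2a: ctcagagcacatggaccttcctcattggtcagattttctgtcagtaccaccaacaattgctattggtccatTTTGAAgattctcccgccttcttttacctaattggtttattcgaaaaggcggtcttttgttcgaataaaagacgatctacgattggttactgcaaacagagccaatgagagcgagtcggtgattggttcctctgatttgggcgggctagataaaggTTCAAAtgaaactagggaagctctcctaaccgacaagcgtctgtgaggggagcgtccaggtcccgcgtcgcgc
Pcna: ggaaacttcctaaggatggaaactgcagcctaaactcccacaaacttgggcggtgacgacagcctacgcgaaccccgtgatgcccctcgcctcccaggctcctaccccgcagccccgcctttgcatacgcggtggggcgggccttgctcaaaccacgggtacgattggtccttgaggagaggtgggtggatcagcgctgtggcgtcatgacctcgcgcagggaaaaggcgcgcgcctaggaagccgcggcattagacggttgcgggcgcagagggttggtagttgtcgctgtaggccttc

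The Mcm3 window holds 2 E2F matches, the Mcm6 window 3 of which 2 overlap, the Hells window 1, and the Top2a window 2 CHR matches. Windows were found for 107 of the 124 members. The E2F letters are in 17 of the 107 (15.9%), in 4.24% of 6882 windows of other genes on the array and in 2.32% of all 27025 windows of the table. The members with them are Cdc25a, Cdc6, Cdk1, Cdk2, Cenpb, Cenpl, Cenpm, Cenps, Hells, Kif18a, Mcm3, Mcm5, Mcm6, Mcm7, Orc1, Orc3 and Rfc3. The CHR letters are in 24.3% of member windows, 11.9% of those of other genes on the array and 18.1% of all windows. The CCAAT letters are in 55.1%, 38.4% and 37.9% in the same order. A match is a description of letters and not a measured site.

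Of 14 members grouped under origin licensing, 1 was higher and 5 lower in NOD.H2h4, 3 higher and 3 lower of 13 tested in B6toNOD, 2 and 2 in NODtoB6, and 1 and 3 of 13 in B6.NODIdd1,5 T cells. In kidney 3 were lower, and in NOD none passed in limma (0 also at an unadjusted p under 0.05). The 1 higher in NOD.H2h4 was Mcm9 (0.39), and the 5 lower there include Mcm3ap (-1.18), which is only named after Mcm3. Among all features, 24.1% were higher and 15.4% lower in NOD.H2h4, and 28.5% and 22.9% in B6toNOD. Mcm3, a subunit of the replicative helicase, was lower in NOD.H2h4 T cells and in B6.NODIdd1,5 kidney. Its values were -1.82 and -1.61 on the NOD.H2h4 arrays, -1.06 and -1.36 in kidney, -0.03 and 0.05 in NOD, 0.36 and -0.06 in NODtoB6, 0.95 and 0.26 in B6toNOD, and 1.42 on the single B6.NODIdd1,5 T array with a value. The NOD.H2h4 and kidney arrays lie below all others, and the remaining groups overlap. The fit gave -1.71 ± 0.19 in NOD.H2h4 (3.28-fold lower, limma adjusted p = 0.00067) and -1.21 ± 0.19 in kidney (adjusted p = 0.0037), the latter lost without kidney replicate 2 (adjusted p = 0.058). In B6toNOD the value of 0.61 ± 0.19 passed (adjusted p = 0.035), but it was -0.15 as deposited and lost the call without B6toNOD replicate 1 (adjusted p = 0.32).

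The other helicase subunits did not move as a block. Mcm6 was 0.62 and 0.75 on the NODtoB6 arrays and 1.20 and 0.65 on the B6toNOD arrays, and lay between -0.42 and 0.12 on the other 8. Both marrow groups passed, at 0.69 ± 0.12 (adjusted p = 0.0068) and 0.93 ± 0.12 (adjusted p = 0.00054), and the B6.NODIdd1,5 T cells passed as lower at -0.40 ± 0.12 (adjusted p = 0.04). That last call ended without either B6.NODIdd1,5 T array and in 10 of 12 fits that left out 1 array. Mcm2 was 1.05 ± 0.18 in B6toNOD (arrays 0.66 and 1.44, adjusted p = 0.0022), -0.60 ± 0.18 in NOD.H2h4 (adjusted p = 0.034) and -0.63 ± 0.18 in B6.NODIdd1,5 T cells (adjusted p = 0.035). The 2 lower calls were lost in 6 and 8 of the 12 fits without 1 array. Mcm5 was lower in kidney alone among the groups that passed, at -1.02 and -1.08 on its arrays (-1.05 ± 0.26, adjusted p = 0.018, lost without either kidney array), while B6toNOD at 0.70 ± 0.26 missed the threshold (adjusted p = 0.057). Mcm7 went the other way from Mcm2 and Mcm6 in B6toNOD, with -2.18 and -0.60 on its arrays (-1.39 ± 0.31, adjusted p = 0.0072). Its 2 arrays differ by more than the smaller of their values.

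Mcm4 was lower in NOD.H2h4 (-0.88 and -2.26, mean -1.57 ± 0.30, adjusted p = 0.0049) and in B6.NODIdd1,5 T cells (-1.25 and -1.98, mean -1.62 ± 0.30, adjusted p = 0.0062, lost without replicate 2). Its probes disagreed. One read -3.56 in NOD.H2h4 and -3.42 in B6.NODIdd1,5 T cells, and the other read 0.42 and 0.19. With 1 probe per gene, the second probe stood for Mcm4 and its fitted value was 0.38 in NOD.H2h4 and 0.19 in B6.NODIdd1,5 T cells, so no direction holds for both probes. Mcm9, a helicase of recombination and repair, shows the same in B6toNOD, where its mean of -1.31 ± 0.11 (adjusted p = 5.6e-05) joins probes at -3.55 and 0.93.

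Subunits of the origin recognition complex differed among themselves in NODtoB6. Orc3 was 2.16 and 1.41 there (1.78 ± 0.18, 3.44-fold higher, adjusted p = 0.0013), above its values of -0.22 to 0.56 on the other arrays with a value. Orc1 was -1.57 and -3.45 in NODtoB6 (-2.51 ± 0.37, adjusted p = 0.0036) and -1.27 and -1.30 in kidney (-1.28 ± 0.37, adjusted p = 0.032, lost in 6 of 12 fits without 1 array). Its values were negative on the 8 arrays of the congenic and marrow groups, and lay between -0.02 and 0.30 on the NOD and NOD.H2h4 arrays. Orc6 was lower in B6toNOD (-1.0 and -2.27, mean -1.63 ± 0.26, adjusted p = 0.0016). Orc2 was higher in B6.NODIdd1,5 T cells (2.06 and 0.65, mean 1.36 ± 0.29, adjusted p = 0.011) and lower in NODtoB6 (-1.05 ± 0.29, adjusted p = 0.034), but 1 of its 3 probes led both, at 3.07 and -3.17. Without B6.NODIdd1,5 T replicate 1 the first call ended (adjusted p = 0.063), and the second was lost in 8 of 12 fits. Cdc6, which loads the helicase, passed in no group and was 6.06 on B6.NODIdd1,5 T replicate 1 and -0.32 on replicate 2.

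Pcna, the sliding clamp, was 1.51 and 1.32 on the B6toNOD arrays, 0.74 and 0.71 on the NODtoB6 arrays, -0.02 and -0.08 in kidney, -0.26 and -0.59 in NOD, -0.72 and -1.19 in NOD.H2h4, and -0.78 and -0.62 in B6.NODIdd1,5 T cells. In the direction assumed, both marrow groups lie above all other arrays, and with their signs turned the B6toNOD arrays would lie below all others. No array of NOD.H2h4 or B6.NODIdd1,5 T cells reaches those of kidney. B6toNOD gave 1.41 ± 0.13 (2.66-fold, adjusted p = 9.6e-05), NODtoB6 0.73 ± 0.13 (adjusted p = 0.0074), NOD.H2h4 -0.95 ± 0.13 (1.94-fold lower, adjusted p = 0.001) and B6.NODIdd1,5 T cells -0.70 ± 0.13 (adjusted p = 0.0063). Both probes had the sign of the mean in each of these groups. The NODtoB6 call ended without its replicate 2 (adjusted p = 0.053) and the B6.NODIdd1,5 T call without its replicate 1 (adjusted p = 0.065).

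Of the clamp loader, Rfc2 was lower in NOD.H2h4 (-0.69 ± 0.11, adjusted p = 0.0032), B6.NODIdd1,5 T cells (-0.63 ± 0.11, adjusted p = 0.0068) and kidney (-0.40 ± 0.11, adjusted p = 0.031), with negative values on all 6 of those arrays. Each of these calls ended without 1 of the group's own arrays. Rfc1 was higher in NOD.H2h4 at 0.48 ± 0.062, kidney at 0.40 ± 0.062 and B6toNOD at 0.46 ± 0.062, but these were -0.32, -0.06 and -0.30 as deposited. Rfc5 was lower in B6toNOD (-0.85 ± 0.29, adjusted p = 0.039) and Rfc3 in kidney (-0.86 ± 0.25, adjusted p = 0.042). The Rfc5 call was lost in 7 and the Rfc3 call in 8 of the 12 fits that left out 1 array.

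In the mixed group of chromatin and cytoskeleton genes, 3 of 4 were higher in each marrow group. Lower calls were 2 of 4 for each of NOD.H2h4 and both congenic tissues. Of all features, 28.5% were higher in B6toNOD and 13.8% in NODtoB6. The lower share of all features was 11.1% for kidney, 15.9% for the congenic T cells and 15.4% for NOD.H2h4. The rule lists these 4 genes singly, so the counts describe them alone. H2az1, the histone variant H2A.Z, was 2.79 and 2.65 on the B6toNOD arrays, and between -0.47 and 0.44 on the other 10 arrays, so B6toNOD stands clear of the other groups. The fitted value was 2.72 ± 0.11 (6.58-fold, adjusted p = 4.4e-06), and its 4 probes read 2.60, 3.08, 2.31 and 2.89. In NODtoB6 the mean of 0.16 ± 0.11 did not pass, and the probes ranged from -1.77 to 1.04. In NOD.H2h4 H2az1 was lower (-0.45 ± 0.11, adjusted p = 0.017), a call that ended without either NOD.H2h4 array. Probes of the close relative H2az2 can bind the same RNA.

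Stmn1 encodes stathmin, which destabilises microtubules and is abundant in dividing lymphocytes. It was 2.24 and 2.07 on the B6toNOD arrays, 1.31 and 1.56 on the NODtoB6 arrays, 0.16 and 0.09 in NOD, 0.01 and -0.08 in NOD.H2h4, -0.65 and -0.56 in kidney, and -1.77 and -1.59 in B6.NODIdd1,5 T cells. Apart from NOD and NOD.H2h4, which lie beside each other near 0, the groups do not overlap and are far apart against the spread of their 2 arrays. With the marrow signs turned, NODtoB6 and B6toNOD would lie on either side of the B6.NODIdd1,5 T cells. The fit gave 2.16 ± 0.090 in B6toNOD (4.46-fold, adjusted p = 4.5e-06), 1.44 ± 0.090 in NODtoB6 (2.71-fold, adjusted p = 8.3e-05), -0.61 ± 0.090 in kidney (adjusted p = 0.0021) and -1.68 ± 0.090 in B6.NODIdd1,5 T cells (3.21-fold lower, adjusted p = 3.2e-05). All 4 calls held in each fit without 1 array.

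Hells, a chromatin remodeller named lymphoid-specific helicase and needed for DNA methylation, was -4.71 and -3.60 in B6.NODIdd1,5 T cells. Kidney of the same strain was -1.17 and -0.94, NOD 0.16 and -0.21, NOD.H2h4 -0.07 and 0.01, NODtoB6 0.92 and 1.30, and B6toNOD 0.82 and 0.41. The congenic T cells lie below all others, followed by the congenic kidney, whose arrays NODtoB6 would overlap with its sign turned. Their fitted values were -4.15 ± 0.25 (17.8-fold lower, adjusted p = 4.8e-05) and -1.06 ± 0.25 (adjusted p = 0.015), and NODtoB6 was 1.11 ± 0.25 (adjusted p = 0.017). The T cell call held in every fit without 1 array, with a largest adjusted p of 0.00029. The kidney and NODtoB6 calls each ended without either of their own 2 arrays. Hells has 1 probe.

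Top2a, the topoisomerase that untangles chromosomes before they separate, was 1.59 and 1.49 in B6toNOD, 0.61 and 0.73 in NODtoB6 and -1.25 and -0.83 in NOD.H2h4. Its other arrays were between -0.27 and 0.46. In the direction assumed, the marrow groups lie above the rest and NOD.H2h4 below. With the marrow signs turned, B6toNOD would lie below NOD.H2h4. The fit gave 1.54 ± 0.17 (2.91-fold, adjusted p = 0.00027), 0.67 ± 0.17 (adjusted p = 0.028) and -1.04 ± 0.17 (2.06-fold lower, adjusted p = 0.0027). The fall in NOD.H2h4 came from 1 of 2 probes, at -1.92 against -0.16, and with 1 probe per gene it did not pass (-0.20, adjusted p = 0.065). Without NODtoB6 replicate 2 the NODtoB6 call ended (adjusted p = 0.18).

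**Figure D3:**
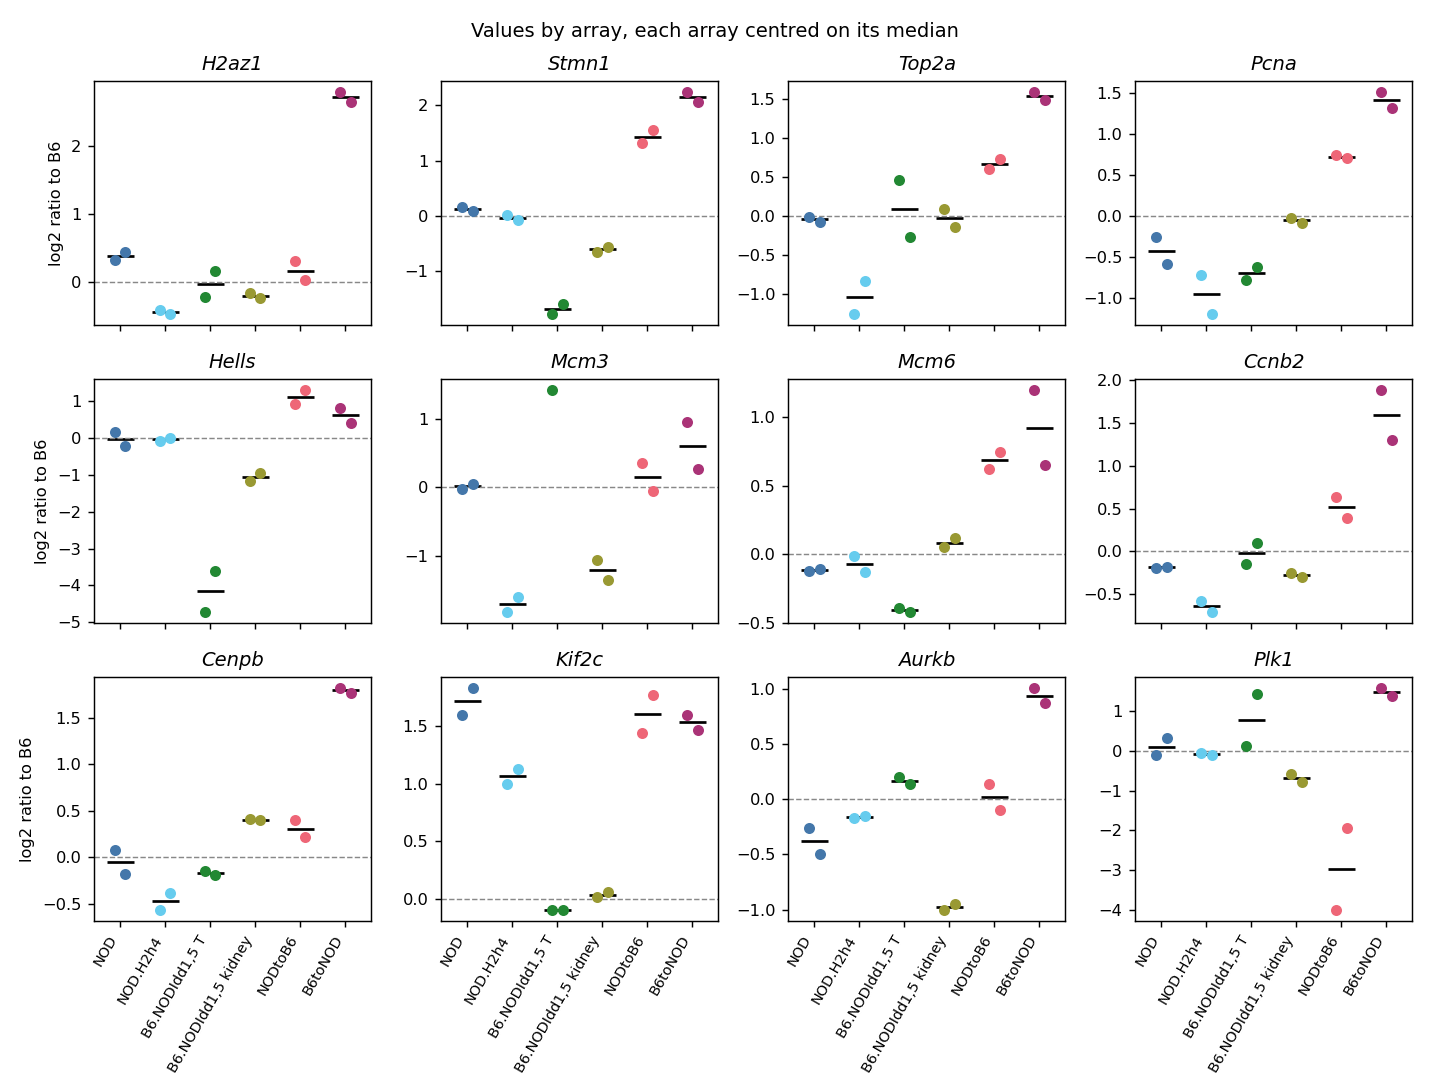
Log2 ratios to B6 of 12 members (panels) in the 6 groups, each array centred on its median. Points are the 2 arrays of a group and the bar is their mean, left out where only 1 array has a value. In the direction assumed, B6toNOD points are the highest for H2az1, Stmn1, Top2a, Pcna, Ccnb2, Cenpb and Aurkb, and Hells is lowest in B6.NODIdd1,5 T cells at -4.71 and -3.60.

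Of 8 members named as cyclins, 5 were higher and 2 lower in B6toNOD, 3 and 1 in B6.NODIdd1,5 T cells, 2 and 1 in each of NODtoB6 and NOD.H2h4, and 1 higher in each of NOD and kidney. The 8 take in the pseudogene Ccnb2-ps, which was the only one higher in NOD and in kidney. They also take in Ccnb1ip1, named after a cyclin, the 1 lower in NODtoB6 (-1.78) and also lower in B6toNOD (-1.29). In B6toNOD 28.5% of all features were higher and 22.9% lower. Ccnb2, a mitotic cyclin, was 1.88 and 1.30 in B6toNOD and 0.64 and 0.39 in NODtoB6. It was -0.58 and -0.70 in NOD.H2h4 and between -0.30 and 0.10 on the other 6 arrays. B6toNOD passed at 1.59 ± 0.14 (3.01-fold, adjusted p = 7.7e-05), NODtoB6 at 0.52 ± 0.14 (adjusted p = 0.032) and NOD.H2h4 at -0.64 ± 0.14 (adjusted p = 0.009), of which the NODtoB6 call was lost in 8 and the NOD.H2h4 call in 2 of the 12 fits without 1 array. The pseudogene Ccnb2-ps was higher in 5 groups by 0.34 to 0.71, among them NOD.H2h4 and B6toNOD, where its values were -0.09 and -0.34 as deposited. A near copy of a gene can share signal with it, so the pseudogene's values are uncertain. Ccna2, the cyclin of S phase and G2, was 0.42 ± 0.12 in B6toNOD (-0.34 as deposited) and -0.42 ± 0.12 in B6.NODIdd1,5 T cells, with adjusted p of 0.019 and 0.033. These calls were lost in 2 and 5 of the 12 fits without 1 array.

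The D cyclins, which act with Cdk4 and Cdk6 in G1, did not move together. Ccnd3, the D cyclin of lymphocytes, was positive on all 8 arrays of NOD, NOD.H2h4 and the marrow groups, at 0.49 to 0.86, and -0.56 to 0.25 on the 4 congenic arrays. It passed in NOD.H2h4 (0.51 ± 0.16, adjusted p = 0.042, but -0.29 as deposited), NODtoB6 (0.83 ± 0.16, adjusted p = 0.011) and B6toNOD (0.77 ± 0.16, adjusted p = 0.0061, and 0.01 as deposited). The value of 0.59 ± 0.16 in NOD missed the threshold (adjusted p = 0.062). Ccnd2 passed in B6toNOD at 0.57 ± 0.11 (-0.19 as deposited). Ccnd1 was -1.46 and -2.40 in B6toNOD (-1.93 ± 0.23, 3.81-fold lower, adjusted p = 0.00036) and 1.24 and 0.58 in B6.NODIdd1,5 T cells (0.91 ± 0.23, adjusted p = 0.022). In both groups the value is led by 1 probe, at -3.01 and 1.74.

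Of the 20 members named Cdk, 6 were higher and 5 lower of 18 tested in B6toNOD, 2 and 2 of 19 in NOD.H2h4, 1 and 1 in B6.NODIdd1,5 T cells, 2 higher in NODtoB6 and 3 lower in kidney. Shares of all features were 28.5% higher and 22.9% lower in B6toNOD, 24.1% and 15.4% in NOD.H2h4, and 11.1% lower in kidney. Ccne1, the cyclin that starts S phase with Cdk2, was 1.39 and 4.31 in B6.NODIdd1,5 T cells (2.85 ± 0.58, 7.21-fold, adjusted p = 0.0091), above its range of -1.60 to 0.31 elsewhere. The lowest of those is a B6toNOD array, which with its sign turned would lie above the lower T cell array. The 2 arrays differ by more than the lower of them. Against kidney of the same strain the Ccne1 difference was lost in 11 of 12 fits without 1 array. Cdk2 was also higher in these T cells (1.33 and 2.62, mean 1.97 ± 0.33, adjusted p = 0.004) and lower in the kidney of the same strain (-2.62 and -1.47, mean -2.05 ± 0.33, adjusted p = 0.003). These values too rest on 1 of 2 probes, at 3.76 and -4.26, beside 0.18 and 0.17 for the other. Cdk1, the kinase of mitosis, and Cdk4 passed in B6toNOD at 0.41 ± 0.13 and 0.49 ± 0.091, but were -0.35 and -0.27 as deposited. Cdk6 passed in NODtoB6 (0.56 ± 0.16, adjusted p = 0.036), a call lost in 8 of 12 fits without 1 array.

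The Cdc25 phosphatases switch on cyclin-dependent kinases. Cdc25b was -2.74 and -2.51 in kidney (-2.63 ± 0.20, 6.17-fold lower, adjusted p = 0.0015), below its other arrays with a value, which ranged from -1.08 to 2.38. Cdc25c was -1.34 and -1.28 in B6toNOD (-1.31 ± 0.071, adjusted p = 1.1e-05) and 0.77 and 0.68 in NOD.H2h4 (0.72 ± 0.071, adjusted p = 0.00022), where it was -0.08 as deposited. Cdc25a passed as lower in NODtoB6 at -0.82 ± 0.23 (adjusted p = 0.038), and its 5 probes there were all negative, from -1.51 to -0.48. That call was lost in 8 of 12 fits without 1 array.

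Of 9 mitotic kinases and checkpoint genes, 3 were lower in NODtoB6, 2 higher in B6toNOD, 1 higher and 1 lower in NOD.H2h4, 1 and 1 of 8 tested in kidney, 1 lower of 6 in B6.NODIdd1,5 T cells and 1 lower in NOD. Beside them, 13.1% of all features were lower in NODtoB6 and 28.5% higher in B6toNOD. The family's median was -1.31 in NODtoB6 and between -0.25 and 0.05 in the other 5 groups. Plk1, which acts from entry into mitosis to cytokinesis, was 1.58 and 1.38 in B6toNOD and -3.99 and -1.95 in NODtoB6, with its other 8 arrays between -0.78 and 1.43. NODtoB6 passed at -2.97 ± 0.46 (7.83-fold lower, adjusted p = 0.0043), and B6toNOD at 1.48 ± 0.46 (adjusted p = 0.03), a call that ended without either of its arrays. Aurkb, the kinase of the chromosomal passenger complex, was 1.01 and 0.87 in B6toNOD (0.94 ± 0.090, adjusted p = 0.00012) and -1.0 and -0.95 in kidney (-0.97 ± 0.090, 1.96-fold lower, adjusted p = 0.00037). In NOD it was -0.38 ± 0.090 (adjusted p = 0.036), lost in 8 of 12 fits without 1 array. Birc5 (survivin), a partner of Aurkb in that complex, was lower in NOD.H2h4 (-1.03 and -1.12, mean -1.08 ± 0.18, adjusted p = 0.004) and in NODtoB6 (-1.52 and -1.09, mean -1.31 ± 0.18, adjusted p = 0.0042). It had no value in B6.NODIdd1,5 T cells. Aurkc was -4.38 and -2.55 in NODtoB6 (-3.46 ± 0.42, adjusted p = 0.0045).

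The spindle checkpoint genes moved little. Bub1 was 0.33 ± 0.084 in NOD.H2h4 and 0.30 ± 0.084 in kidney, both higher after centring and at -0.47 and -0.16 as deposited. Bub1b passed in B6.NODIdd1,5 T cells alone of the groups tested, at -0.49 and -0.38 (-0.44 ± 0.088, adjusted p = 0.009), but 1 of its 3 probes led it at -1.50 and its value with 1 probe per gene was 0.16. Bub3 passed in no group.

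Of 11 mitotic kinesins, 3 were higher and 1 lower of 9 tested in B6toNOD, 2 and 1 in NOD.H2h4, 1 and 2 of 10 in kidney, 2 lower of 10 in B6.NODIdd1,5 T cells, and 1 higher in each of NOD and NODtoB6. For comparison, 28.5% of all features were higher and 22.9% lower in B6toNOD, and 24.1% and 15.4% in NOD.H2h4. Kif2c, a kinesin that takes microtubules apart at the centromere, was higher in 4 of 6 groups, in the direction assumed for the marrow groups. It was 1.60 and 1.83 in NOD, 1.0 and 1.13 in NOD.H2h4, 1.44 and 1.77 in NODtoB6 and 1.60 and 1.47 in B6toNOD, against -0.09 and -0.09 in B6.NODIdd1,5 T cells and 0.02 and 0.06 in the kidney. No array of the first 4 groups overlaps the congenic arrays. With the marrow signs turned, NODtoB6 and B6toNOD would lie below the congenic arrays. The fit gave 1.71 ± 0.10 (3.28-fold, adjusted p = 0.00011), 1.07 ± 0.10 (2.09-fold, adjusted p = 0.0002), 1.60 ± 0.10 (3.04-fold, adjusted p = 8.7e-05) and 1.53 ± 0.10 (2.89-fold, adjusted p = 2.3e-05) in that order. All 4 calls held in each fit without 1 array, and the values were positive as deposited, where NOD.H2h4 (0.27, adjusted p = 0.15) no longer passed. Kif2c has 1 probe. These comparisons use B6 T cell RNA on their other channel, so they are not independent of each other.

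Other mitotic kinesins gave smaller values. Kif11, which pushes spindle poles apart, passed in kidney (0.42 ± 0.090) and B6toNOD (0.50 ± 0.090) but was -0.03 and -0.26 as deposited. Kif18a was lower in B6.NODIdd1,5 T cells (-0.58 ± 0.092, adjusted p = 0.0031) and kidney (-0.52 ± 0.092, adjusted p = 0.0045), with all 4 arrays between -0.69 and -0.48, and higher in B6toNOD (0.52 ± 0.092, but -0.24 as deposited). Kif24 was -2.54 and -2.18 in B6toNOD (-2.36 ± 0.22, 5.14-fold lower, adjusted p = 0.00021), and lower in both congenic groups (-1.20 ± 0.22 and -1.21 ± 0.22). Kif4, a chromosome-bound kinesin, was negative on all 11 arrays with a value and passed in NOD.H2h4 (-0.73 and -2.54, mean -1.63 ± 0.38, adjusted p = 0.015).

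Among kinesins of transport, Kif1c was higher in NOD (0.46 ± 0.067), NOD.H2h4 (0.91 ± 0.067), kidney (0.72 ± 0.067) and B6toNOD (0.25 ± 0.067, but -0.51 as deposited) and lower in NODtoB6 (-0.34 ± 0.067), and Kif16b of endosomes was lower in 4 groups by 0.69 to 1.60 on the log2 scale. Kif21b was -3.06 and -2.65 in NOD.H2h4 (-2.86 ± 0.38, 7.25-fold lower, adjusted p = 0.0027) and 0.77 and 1.02 in NOD. It was lower in kidney as well (-1.62 ± 0.38, adjusted p = 0.025, lost in 3 of 12 fits without 1 array). Kif9 in NOD.H2h4 (-2.20 ± 0.33) had 1 probe at -4.19 and the other at -0.21. Kif5b in kidney (1.06 ± 0.14) had probes at 3.67, -0.20 and -0.28.

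Of 18 centromere proteins, 4 were higher and 4 lower of 16 tested in B6toNOD, 3 and 4 in NODtoB6, 2 and 4 of 17 in NOD.H2h4, 4 and 1 in kidney, and 1 and 1 in NOD. In B6.NODIdd1,5 T cells limma called none of 17 (1 at an unadjusted p under 0.05). Across all features, 28.5% were higher and 22.9% lower in B6toNOD, 13.8% and 13.1% in NODtoB6, and 14.4% and 15.9% in B6.NODIdd1,5 T cells. Cenpb, which binds the repeat DNA of centromeres, was 1.82 and 1.77 in B6toNOD (1.79 ± 0.090, 3.46-fold, adjusted p = 8.2e-06). It lay between -0.56 and 0.41 on the other 10 arrays and passed as lower in NOD.H2h4 (-0.47 ± 0.090) and higher in NODtoB6 (0.31 ± 0.090) and kidney (0.40 ± 0.090, but -0.05 as deposited). Cenpa, the histone H3 variant of the centromere, was 0.92 and 1.08 in B6toNOD (1.0 ± 0.16, adjusted p = 0.0017) and -0.59 and -0.47 in NOD.H2h4 (-0.53 ± 0.16, adjusted p = 0.038), and both its probes had the sign of the mean in each. The NOD.H2h4 call was lost in 6 of 12 fits without 1 array. Cenpx was lower in B6toNOD at -1.06 and -3.84 (-2.45 ± 0.54, adjusted p = 0.0071). Cenpn was -1.48 and -2.97 in NOD.H2h4 (-2.22 ± 0.31, adjusted p = 0.0012), from probes at -4.03 and -0.42. Cenpe, a kinesin-like motor of the centromere, was -1.96 and -1.89 in kidney (-1.93 ± 0.20, adjusted p = 0.00054), from probes at -5.05, -0.83 and 0.10, and its value with 1 probe per gene was 0.09. It was lower in NOD.H2h4 (-1.02 ± 0.20) and B6toNOD (-0.77 ± 0.20) as well, with 1 probe per gene at 0.01 and -0.95.

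Of 14 members of the anaphase-promoting complex, 2 were higher and 3 lower of 13 tested in B6toNOD, 1 and 3 in B6.NODIdd1,5 T cells, 2 and 2 in kidney, 2 and 1 in NOD.H2h4, 1 and 2 in NODtoB6, and 1 lower in NOD. All features gave 28.5% higher and 22.9% lower in B6toNOD, and 14.4% and 15.9% in B6.NODIdd1,5 T cells. Cdc16 was 5.11 and 4.16 in NODtoB6 (4.64 ± 0.25, 24.9-fold, adjusted p = 0.00012), the largest in size of any member that passed in any of the 6 groups. Its other arrays with a value were between -1.60 and 0.40. It was lower in NOD.H2h4 (-1.01 and -1.60, mean -1.31 ± 0.25, adjusted p = 0.0077). Cdc16 has 1 probe, and no other subunit passed as higher in NODtoB6, where Cdc27 (-1.41 ± 0.23, adjusted p = 0.005) and Anapc1 (-0.33 ± 0.088, adjusted p = 0.032) were lower. Anapc5 was 1.43 and 1.18 in B6.NODIdd1,5 T cells (1.31 ± 0.15, adjusted p = 0.00066). Anapc7 was lower there (-1.69 ± 0.22, adjusted p = 0.0013) and in NOD (-1.29 ± 0.22, adjusted p = 0.011), led in both by 1 of 2 probes, at -2.97 and -2.17 beside -0.41 and -0.41. Cdc20, an activator of the complex, passed in no group.

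**Figure D4:**
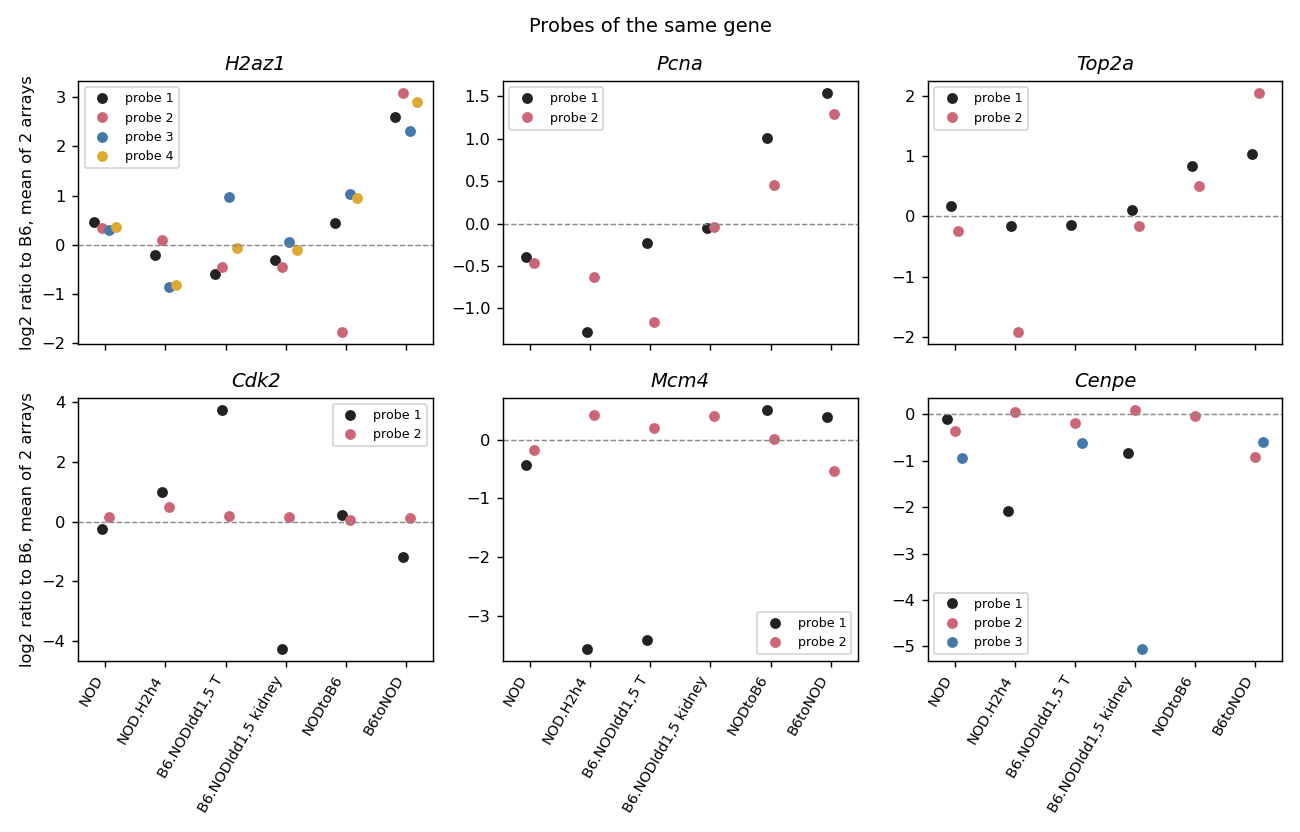
Log2 ratios to B6 of single probes (colours) of 6 genes in the 6 groups, each point the mean of 2 arrays after centring, with no point where an array lacks a value. All 4 probes of H2az1 are high in B6toNOD, while 1 probe each of Cdk2 and Mcm4 carries the gene's large values, and the lowest values of Cenpe come from different probes in NOD.H2h4 and in B6.NODIdd1,5 kidney.

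Members with several probes therefore differ in how firm their values are. Where a member with several probes passed, all its probes had one sign for 3 of 3 in NOD, 13 of 17 in NOD.H2h4, 8 of 10 in B6.NODIdd1,5 T cells, 10 of 13 in kidney, 11 of 13 in NODtoB6 and 18 of 20 in B6toNOD. Passing on the mean of the probes itself favours probes of one sign. Over all members with several probes, passed or not, it was 31 of 54 in NOD, 23 of 51 in NOD.H2h4 and 26 of 46 in B6.NODIdd1,5 T cells. In kidney it was 25 of 52, in NODtoB6 21 of 49 and in B6toNOD 22 of 43. The median distance between the lowest and highest probe of a member was 0.42 in NOD and 1.14 in B6toNOD. Probes of a gene are not replicates, and which of them measures the gene was not tested.

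The comparison of NOD.H2h4 with NOD asks what the H2h4 haplotype goes with on one background, as far as the strains differ in nothing else. Of 121 members tested 8 were higher and 10 lower, 6.61% and 8.26%, beside 12% and 6.22% of all features. In the values as deposited limma called 0 higher and 37 lower (58 at an unadjusted p under 0.05), and with arrays centred on genes with 1 symbol it was 13 and 9. The share of lower members is near the 6.95% of genes with a symbol. Of the lower ones, Mcm3 differed by -1.73 ± 0.27 (adjusted p = 0.0092), Top2a by -1.0 ± 0.25 (adjusted p = 0.031), Birc5 by -0.96 ± 0.25 (adjusted p = 0.048), Cenpa by -0.93 ± 0.23 (adjusted p = 0.032), H2az1 by -0.82 ± 0.16 (adjusted p = 0.014) and Rfc2 by -0.78 ± 0.15 (adjusted p = 0.019). Kif21b differed most (-3.76 ± 0.54, 13.5-fold lower, adjusted p = 0.011). Kif2c, higher than B6 in both strains, was lower in NOD.H2h4 than in NOD by 0.65 on the log2 scale (adjusted p = 0.021). Higher ones included Anapc7 (1.40 ± 0.31), Kif28 (0.79 ± 0.12), Cdc25c (0.73 ± 0.10) and Cenph (0.61 ± 0.11, but -0.04 as deposited).

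The 2 groups also differed in markers of other cells. The mean of the 8 of 15 erythroid markers on the array was 1.18 and 1.09 on the NOD arrays and 0.40 and 0.50 on the NOD.H2h4 arrays, and that of 3 of 11 B cell markers -0.17 and -0.31 against -1.08 and -1.23. Single markers were split. Hbb-b1 (-1.46) and Alas2 (-1.21) passed as lower in NOD.H2h4, and Slc4a1 (-1.36) and Tfrc (-0.55) did not pass. Car2 (0.73), Gata1 (0.52) and Ermap (0.24) were positive and did not pass. Of the B cell markers Cd24a (-1.40) passed, and Blk (-0.95) and Cd79b (-0.39) did not. The mean of 5 of 10 germinal centre and plasma cell markers was 0.05 and 0.02 in NOD and -0.58 and -0.43 in NOD.H2h4, although none of the 5 passed in the limma test of the difference (2 at an unadjusted p under 0.05). Their part in the differences of replication genes was not tested. Leaving out NOD.H2h4 replicate 2 left 3 members past the threshold in this comparison.

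B6.NODIdd1,5 T cells against NOD T cells compare mice that share the Idd1 and Idd5 intervals on different backgrounds. Of 115 members 7 were higher and 10 lower, 6.09% and 8.7%, beside 9.41% and 14.9% of all features, and with a running median along the probe order 10 were higher and 7 lower. Hells differed by -4.13 ± 0.35 (17.5-fold lower, adjusted p = 0.00033), Stmn1 by -1.81 ± 0.13 (adjusted p = 0.00014) and Kif2c by -1.80 ± 0.14 (3.49-fold lower, adjusted p = 0.00023), and all 3 held in each fit without 1 array. Kif18a (-0.83 ± 0.13), Rfc2 (-0.72 ± 0.15) and Anapc1 (-0.87 ± 0.12) were lower as well. Ccne1 (3.24 ± 0.82), Cdk2 (2.02 ± 0.47), Orc2 (1.53 ± 0.41) and Anapc5 (1.51 ± 0.21) were higher, the middle pair led by single probes. Erythroid markers averaged -0.60 and -0.58 on the congenic T cell arrays and myeloid markers -0.60 and -0.52, against 0.78 and 0.68 for the latter in NOD. Their part was not tested. Counts were 8 to 25 when 1 array was left out, lowest without NOD replicate 2.

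In B6.NODIdd1,5 mice the T cells and the kidney, each set against the same tissue of B6, differed at 21 of 115 members. T cells were higher at 9 and lower at 12, 7.83% and 10.4%, beside 6.9% and 14.1% of all features, and 8 higher and 2 lower as deposited. Stmn1 and Hells were lower than B6 in both tissues and further so in T cells, by -1.07 ± 0.13 (adjusted p = 0.0014) and -3.09 ± 0.35 (adjusted p = 0.0012). Aurkb was at 0.20 and 0.14 in T cells and -1.0 and -0.95 in kidney, a difference of 1.14 ± 0.13 (adjusted p = 0.0011). Anapc5 differed by 1.34 ± 0.21 (adjusted p = 0.004) and Pcna by -0.65 ± 0.18 (adjusted p = 0.044). Cdk2 had the largest difference, 4.02 ± 0.47 (adjusted p = 0.0013), from its first probe. The other probe read 0.18 in T cells and 0.17 in kidney. Without B6.NODIdd1,5 kidney replicate 2, 10 members passed.

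The ratios to B6 of markers of other cells differed between these tissues as well, which says nothing of their levels in T cells and kidney. Of 8 erythroid markers 4 had a lower ratio in T cells than in kidney, among them Car2 (-1.45 ± 0.24, adjusted p = 0.0057), Alas2 (-1.35 ± 0.23) and the haemoglobin gene Hbb-b1 (-1.14 ± 0.18). Of 6 myeloid markers 2 were lower, Lyz2 (-0.91 ± 0.13) and S100a9 (-0.73 ± 0.17), as were the B cell marker Cd24a (-1.09 ± 0.14, 1 of 3) and the kidney segment marker Lrp2 (-1.34 ± 0.17, 1 of 5). The other B cell markers, Cd79b (0.21) and Blk (0.81), were positive and did not pass. Of the other kidney segment markers none passed, with Cubn (0.37) positive and Umod (-0.53), Pdzk1 (-0.41) and Slc12a1 (-0.16) negative. The plasma cell marker Sdc1 was higher (0.62 ± 0.16, adjusted p = 0.032, 1 of 4 germinal centre and plasma cell markers), and none of 4 T cell markers passed (0 also at an unadjusted p under 0.05 in limma). The part of these cells in the members' differences was not tested.

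**Figure D5:**
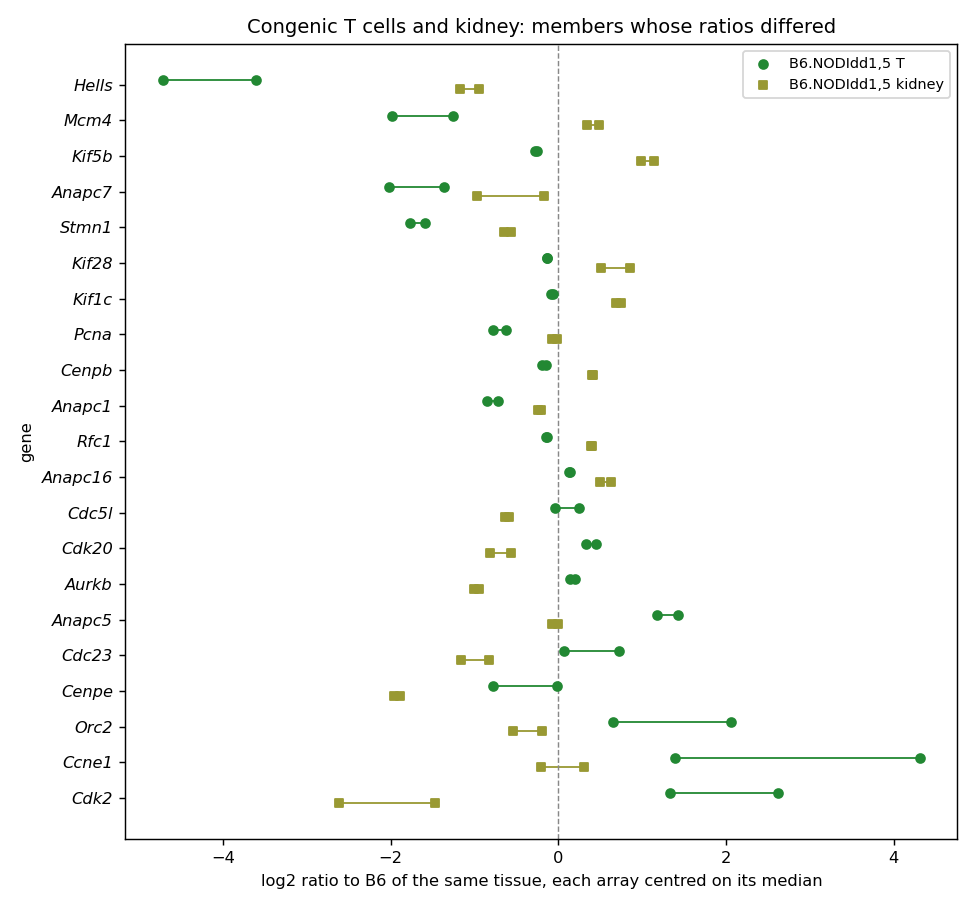
Log2 ratios to B6 of the same tissue for the 21 members whose ratios differed between B6.NODIdd1,5 T cells (circles) and kidney (squares), 2 arrays each joined by a line, each array centred on its median. The arrays of the tissues do not overlap for any of the 21 genes, which the threshold favours. Hells is lowest in T cells and Cdk2 moves in opposite directions.

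The reciprocal marrow transfers compare NOD marrow in B6 hosts with B6 marrow in NOD hosts, if both sides have the direction assumed here. Of 112 members 9 were higher in NODtoB6 and 25 lower, 8.04% and 22.3%, beside 13.8% and 22.2% of all features. As deposited the split was 25 higher and 3 lower. With the sign of the NODtoB6 arrays turned it was 25 and 31, and with that of the B6toNOD arrays turned 31 and 25. Lower in NODtoB6 were Plk1 (-4.45 ± 0.65, adjusted p = 0.0016), H2az1 (-2.55 ± 0.16, adjusted p = 8.6e-05), Cenpb (-1.48 ± 0.13, adjusted p = 0.00019), Birc5 (-1.46 ± 0.25, adjusted p = 0.0055), Ccnb2 (-1.07 ± 0.20, adjusted p = 0.0048) and Aurkb (-0.93 ± 0.13, adjusted p = 0.0012). Top2a (-0.87 ± 0.25), Stmn1 (-0.72 ± 0.13) and Pcna (-0.69 ± 0.18) were higher than B6 in both transfers and lower in NODtoB6 than in B6toNOD. With arrays scaled to the same spread these 3 no longer passed, at -0.24, 0.19 and -0.10, and neither did Ccnb2 at -0.43 (adjusted p = 0.11). Higher in NODtoB6 were Ccnd1 (2.44 ± 0.33), Orc6 (1.60 ± 0.37), Mcm9 (1.40 ± 0.15), Cdc25c (1.16 ± 0.10) and Cenpl (0.97 ± 0.10). The Mcm9 difference joins B6toNOD probes at -3.55 and 0.93, so no direction holds for both of its probes, and the Ccnd1 difference is led by 1 B6toNOD probe at -3.01. The Orc6 call ended without NODtoB6 replicate 2 (adjusted p = 0.062).

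Markers of myeloid cells moved with these groups. Of 15 markers 6 were on the array. In B6toNOD 5 of the 6 were higher, with S100a9 at 6.68 ± 0.12 and Lcn2 at 5.72 ± 0.25, and in NODtoB6 all 6 were, with S100a9 at 3.05 ± 0.12. Their mean per array was 3.30 and 3.43 in B6toNOD, 1.88 and 1.80 in NODtoB6, and between -0.60 and 0.78 in the other groups. Stmn1, Top2a and Pcna were also highest in B6toNOD and next highest in NODtoB6, but other members were not. In B6toNOD and NODtoB6, H2az1 was 2.72 and 0.16, Plk1 1.48 and -2.97, and Birc5 0.15 and -1.31. Kif2c was highest in NOD (1.71). Erythroid markers averaged 1.36 and 1.65 in NODtoB6 and 0.31 and 0.37 in B6toNOD, and 1.18 and 1.09 in NOD, where the haemoglobin genes Hbb-b1 and Hbb-bh1 were at 3.31 and 2.82. The 5 members higher in NOD were 4.03% of those tested, beside 9.79% of all features. The part of these cells in the members' values was not tested.

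Genes of the pathway outside the member families were counted from lists of 40 replication genes, 50 mitosis genes and 33 cell cycle inhibitors and E2F-RB genes. In B6toNOD, 18 of 46 mitosis genes tested were higher and 6 lower, beside 28.5% and 22.9% of all features. Cks2, a subunit of cyclin-dependent kinases, was 1.91 ± 0.077 (adjusted p = 3.9e-06), the chromatin protein Hmgb2 2.18 ± 0.54 (adjusted p = 0.016), the cohesin subunit Rad21 2.12 ± 0.092 (adjusted p = 5.2e-06), the condensin subunit Ncaph 1.65 ± 0.088 (adjusted p = 1e-05) and the lamin Lmnb1 1.93 ± 0.18 (adjusted p = 9.2e-05). Of 26 replication genes 6 were higher and 3 lower there, with the chromatin assembly subunit Chaf1b lowest (-2.91 ± 0.20, adjusted p = 2.8e-05). In NODtoB6, 6 of 45 mitosis genes were higher and 3 lower, and 1 of 30 replication genes was higher and 5 lower. The shares of all features there were 13.8% and 13.1%.

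In NOD.H2h4, 8 of 47 mitosis genes were higher and 8 lower, and 2 of 30 replication genes higher and 5 lower, among them the licensing factors Cdt1 (-0.92 ± 0.27, adjusted p = 0.029) and its inhibitor Gmnn (-0.86 ± 0.16, adjusted p = 0.0037). Of all features in NOD.H2h4, 24.1% were higher and 15.4% lower. B6.NODIdd1,5 T cells had 1 of 27 replication genes higher and 6 lower, and 8 of 45 mitosis genes higher and 7 lower, beside 14.4% and 15.9% of all features. Kidney had 7 of 30 replication genes higher and 5 lower, and 9 of 46 mitosis genes higher and 4 lower, beside 22.4% and 11.1%. NOD had 0 of 30 replication genes past the threshold in limma (3 at an unadjusted p under 0.05), and 2 of 47 mitosis genes in each direction, beside 9.79% of all features higher and 2.46% lower. Cdkn1a (p21), which holds cells in G1, was higher in NOD (0.80 ± 0.21), NOD.H2h4 (1.54 ± 0.21) and B6toNOD (1.24 ± 0.21) and lower in B6.NODIdd1,5 T cells (-2.08 ± 0.21, adjusted p = 0.0004) and kidney (-1.15 ± 0.21, adjusted p = 0.0047). Cdkn1a, Hells and Stmn1 were thus lower than B6 in both congenic tissues.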

How the data were processed

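Spleen T cells of 5 kinds of mice and kidney cells of 1 were each compared with B6 RNA on 2-colour cDNA arrays, 2 arrays per group. The deposited values are log2 ratios of experimental to B6 RNA, one per probe and array, made by the authors. The sources used here name no background correction or normalization, and no dyes for the marrow transfer arrays, whose direction was assumed. Probes were named from the platform's annotation, and 12850 of 13033 probes with 1 symbol were found in RefSeq by gene identifier. Cells holding the log2 of 100000 (146 in all, 0 of them in member probes) were treated as missing. Every array's median over features was subtracted, and a gene's probes were averaged. A feature was tested where both arrays of a group had a value.

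limma 3.58.1 (R 4.3.3) fitted all 6 groups together (lmFit and eBayes, 6 residual and 1.4 prior degrees of freedom), with Benjamini-Hochberg adjustment over all features and a threshold of 0.05. The fit was tested on simulated data first. A ratio against B6 is a test against 0, which leaves out the spread of B6 mice, and no dye swap cancels a dye effect. No source says that the arrays hold separate animals, so p-values reflect array-to-array spread alone, and precision is limited by how few arrays there are. The comparisons share B6 as control. Replicate numbers did not pair the arrays: the correlation of deviations of same-numbered arrays was -0.04 to 0.02 over 15 pairs of groups.

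Members, gene lists and marker lists were chosen with earlier results of these data known. Genes were named by a rule: in each comparison, up to 10 higher and 10 lower members past the threshold with the arrays on one side, and a fixed list of main replication and mitosis genes. Genes of other lists were named as those of largest absolute value. Names outside the rule, such as Gmnn, Cdt1 and Bub1b, were chosen after their values were seen. Promoters were copied from a RefSeq table of GRCm38.p6. Alternatives were the values as deposited, centring on named genes, a common spread, a running median, complete features, 1 probe per gene, the compared groups alone, a replicate block, turned signs and each array left out.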

Additional observations from a re-analysis of the deposited data

Results flagged for a closer look

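In B6.NODIdd1,5 mice, 21 members differed between T cells and kidney by a test of the difference itself (limma, adjusted over all features), each tissue set against the same tissue of B6. Each value here is the T cell ratio minus the kidney ratio on the log2 scale, with 2 arrays per tissue. In replication, Hells was at -3.09, Mcm4 at -2.03, Pcna at -0.65 and Rfc1 at -0.54, while Orc2 was at 1.72. Of genes that drive the cycle, Cdk2 was at 4.02, Ccne1 at 2.80 and Cdk20 at 1.07. Of mitosis genes, Aurkb was at 1.14, Cenpe at 1.52, Cenpb at -0.58 and Stmn1 at -1.07. The anaphase-promoting complex went both ways, with Cdc23 at 1.40 and Anapc5 at 1.34 beside Anapc7 at -1.12, Anapc1 at -0.55 and Anapc16 at -0.43. Of 11 kinesins outside mitosis 3 were lower in T cells, Kif5b at -1.33, Kif28 at -0.81 and Kif1c at -0.79, and 8 did not pass. Kif5b had 1 probe far from its others (1.25 in T cells and 3.67 in kidney), and its difference with 1 probe per gene was -1.15. The splicing gene Cdc5l was at 0.72.

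With 1 probe per gene the sign turned for Cdc5l (-0.78), Cdc23 (-0.12) and Cenpe (-0.28), and Mcm4 no longer passed (-0.20, adjusted p = 0.62). The Cdk2 difference comes from 1 of its 2 probes (3.76 in T cells and -4.26 in kidney), and the other read 0.18 and 0.17. The T cell values of Anapc7 and Orc2 are likewise each led by 1 probe. Stmn1, Hells, Aurkb and Anapc5 passed in each fit that left out 1 array, as did Cdk2 with its probes averaged, while Ccne1 was lost in 11 of the 12. Erythroid, myeloid and kidney markers differed between the same arrays, and their part was not tested. Tissue and B6 reference change together between these arrays, so a difference may lie in either tissue of either strain.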

How the results depend on the processing

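Counts of members past the threshold and their direction rest most on the centring, on how the spread is pooled and on single arrays. Leaving out 1 array gave 2 to 11 members in NOD, 22 to 53 in NOD.H2h4, 18 to 35 in B6.NODIdd1,5 T cells, 12 to 46 in kidney, 18 to 46 in NODtoB6 and 52 to 62 in B6toNOD. The differences gave 3 to 27 (NOD.H2h4 minus NOD), 8 to 25 (B6.NODIdd1,5 T minus NOD), 10 to 32 (T cells minus kidney) and 24 to 42 (NODtoB6 minus B6toNOD). In the comparisons against B6, counts were lowest without an array of the group itself, except in B6toNOD, and in most comparisons highest without B6toNOD replicate 1. A fit without 1 of a group's 2 arrays takes the spread of that group from the others. Of 221 named values past the threshold, 120 were lost in at least 1 of these fits and 0 reversed. As deposited, the counts were 2 in NOD, 87 in NOD.H2h4, 52 in kidney, 37 in NOD.H2h4 minus NOD, 9 in B6.NODIdd1,5 T minus NOD and 10 in T cells minus kidney. Scaled to the same spread, they were 38 in NOD, 36 in B6toNOD, 36 in B6.NODIdd1,5 T minus NOD and 20 in NODtoB6 minus B6toNOD. With only the compared groups in the limma fit, which leaves 1 residual degree of freedom against B6 and 2 for a difference, 17 members passed in NOD, 64 in kidney and 6 in B6.NODIdd1,5 T minus NOD, and 0 passed in B6.NODIdd1,5 T cells (31 at an unadjusted p under 0.05), NODtoB6 (31 unadjusted), B6toNOD (40 unadjusted) and NODtoB6 minus B6toNOD (34 unadjusted). Turning the sign of either marrow group gave 56 in NODtoB6 minus B6toNOD. Against the mean of the other groups, an alternative chosen after seeing the data, 18 passed in kidney and 20 in NODtoB6, and Ccnb2-ps in NOD was -0.14.

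As deposited, 29 of the 221 named values past the threshold changed sign, beside others such as Ccnb2-ps, Kif18a and Kif1c in B6toNOD. The 29 are listed here by comparison. In NOD.H2h4 they were Ccnd3 (-0.29), Anapc16 (-0.27), Kif2a (-0.25), Cenpi (-0.24), Cdk11b (-0.10), Ccnb2-ps (-0.09), Cdc25c (-0.08), Rfc1 (-0.32) and Bub1 (-0.47). In kidney they were Cenpi (-0.13), Cdc26 (-0.12), Rfc1 (-0.06), Cenpb (-0.05), Kif11 (-0.03) and Bub1 (-0.16), and in B6toNOD Mcm3 (-0.15), Rfc1 (-0.30), Ccna2 (-0.34), Ccnd2 (-0.19), Cdk1 (-0.35), Cdk4 (-0.27) and Kif11 (-0.26). In NOD.H2h4 minus NOD they were Rfc1 (-0.29), Cenpi (-0.27), Kif1c (-0.20), Anapc16 (-0.12) and Cenph (-0.04), and in NODtoB6 minus B6toNOD Rfc1 (0.21) and Cdk4 (0.10). These follow from the shift that centring removes. With 1 probe per gene, Mcm4 was 0.38 in NOD.H2h4 and 0.19 in B6.NODIdd1,5 T cells, Cenpe 0.09 and Kif5b -0.30 in kidney, Rfc1 0.57 in NODtoB6 minus B6toNOD, and Cdc5l -0.78, Cdc23 -0.12 and Cenpe -0.28 in T cells minus kidney. Scaled to the same spread, Kif1c was -0.05 in NOD.H2h4 minus NOD and Stmn1 0.19 in NODtoB6 minus B6toNOD. The cause of these probe and scaling differences was not tested. The replicate block, in which same-numbered arrays share a term although nothing pairs them, gave 7, 40, 22, 34, 29 and 62 members in the 6 groups against B6 and 18, 16, 21 and 32 for the 4 differences, and 11 of 221 named values lost the threshold.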

Other observations

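Cell cycle inhibitors and E2F-RB genes, fixed as a list of 33 of which 24 were on the array, gave counts not described above. In NOD 4 of 24 were higher, in NOD.H2h4 5 were higher and 3 lower, and in B6.NODIdd1,5 T cells 3 were higher and 6 lower. In kidney 1 of 23 was higher and 4 lower, in NODtoB6 2 of 23 were higher, and in B6toNOD 7 of 23 were higher and 3 lower. Higher and lower shares of all features were 9.79% and 2.46% in NOD, 24.1% and 15.4% in NOD.H2h4, and 14.4% and 15.9% in B6.NODIdd1,5 T cells. They were 22.4% and 11.1% in kidney, 13.8% and 13.1% in NODtoB6, and 28.5% and 22.9% in B6toNOD. The mean of this list per array lay between -0.23 and 0.15 on the 12 arrays.

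Markers of further cell types were counted as well. Kidney segment markers (5 of 14 on the array) averaged 0.61 and 0.58 on the kidney arrays, 0.66 and -0.30 on the B6.NODIdd1,5 T arrays, and -1.32 and -1.05 on the B6toNOD arrays, with the other groups between -0.77 and -0.25. Germinal centre and plasma cell markers (5 of 10) averaged 0.46 and 1.05 in NODtoB6 and -0.01 and -0.14 in B6toNOD. The single thymocyte marker of 6 that was on the array passed in no group. T cell markers (5 of 18) averaged between -0.57 and 0.46 over the arrays.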
